A study of Mus musculus with 90 samples.

Results

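Transcript levels of 7 genes for mRNA-binding regulators were followed across 3 brain regions of resident male mice: Rc3h1 (Roquin-1), Rc3h2 (Roquin-2), Nufip2, Elavl1 (HuR), Zfp36 (tristetraprolin), Zfp36l1 and Zfp36l2. They are 7 of the 37991 gene identifiers in the count table. The members were chosen by measured values, the fold changes and adjusted p-values with which Rc3h1, Nufip2 and Elavl1 had been higher in residents that met an intruder with tissue taken at 120 min, and their relatives were added. That choice used the comparison of intruder and control at 120 min in amygdala and hypothalamus, so the members' values from it are given as a description, without p-values, and a member named as called there only restates the choice. For Rc3h1, Nufip2 and Elavl1 the same holds for every other comparison that uses the 120 min libraries of those regions.

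These proteins act on messages after transcription. Roquin-1 and Roquin-2 bind stem-loops in 3′ untranslated regions (3′ UTRs) and recruit the CCR4-NOT complex, which shortens the poly(A) tail, and decapping factors. Nufip2 is a cofactor of Roquin that also binds FMRP, the fragile X protein, and enters stress granules. Tristetraprolin and its paralogs bind AU-rich elements and recruit the same deadenylation machinery, while HuR binds AU-rich and U-rich stretches and stabilises many of the messages it holds. Several of their classical targets are immediate early and inflammatory messages, which is why the family is of interest in tissue taken shortly after a stimulus.

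All animals were C57BL/6J males, housed first with males, then alone and last with a C57BL/6J female, which was taken out 3 h before the trial. Intruder groups faced an unfamiliar BALB/cJ male inside a wire mesh cage for 5 min, and control groups the same cage holding a paper cup. Residents then stayed in a dark, quiet place, and amygdala, frontal cortex and hypothalamus were taken 30, 60 or 120 min after the exposure, which gives 18 groups and 90 libraries from 32 animals. Each group had 5 libraries, except 3 for hypothalamus controls at 30 min and 6 in each frontal cortex group at 120 min. No group was taken directly from the home cage without an exposure, and the tissue is whole dissected region with mixed cell types. The study's design text mentions pooling RNA for library preparation without further detail, while each library carries the label of 1 animal. P-values therefore measure the spread between these libraries, and the 3 regions of an animal are not independent.

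Libraries held between 38.6 M and 58.86 M reads assigned to genes. Hypothalamic neuropeptide genes summed to 644.4 to 1793 CPM (the normalised read count) in hypothalamus and to at most 66.6 in the other regions, so every library labelled hypothalamus stood apart from the rest. Columns of all 28 libraries at 30 min carry the tag ISO and those of all 62 libraries at 60 and 120 min the tag CERV, whose meaning the sources used here do not give. A difference between 30 min and a later time cannot be told apart from whatever the tags mark. Libraries also differ in their leading index sequence, which in several groups is the same for all animals.

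CPM values are edgeR's counts of a gene relative to all assigned reads, on library sizes scaled together over all 90 libraries by the trimmed mean of M-values. CPM is not corrected for transcript length, so levels are compared between samples and not between genes. Fold changes, their standard errors (SE) and adjusted p-values come from edgeR's quasi-likelihood F test over all genes with Benjamini-Hochberg adjustment, and a gene is called below an adjusted p of 0.05. In bulk tissue a lower level can mean fewer cells of a type or less RNA per cell, and these cannot be told apart.

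Rc3h1, whose protein is the better-studied Roquin, ranged from 44.82 CPM in a frontal cortex library to 76.36 in a hypothalamus library, and its highest group mean was 1.44 times its lowest. The hypothalamus controls at 60 min were highest (71.8 ± 1.88 CPM, SD, n = 5) and the frontal cortex intruder group at 60 min was lowest (50.01 ± 4.04, n = 5). Of its 17 steps between neighbouring group means, 2 were larger than the larger SD of the pair. They lay just below the amygdala intruder group at 120 min (68.5 ± 1.47 CPM) and just below the frontal cortex controls at 120 min (55.1 ± 3.24). Rc3h2, its paralog, ranged from 74.92 to 115.4 CPM and was highest in the amygdala intruder group at 60 min (107.4 ± 5.63, n = 5) and lowest in the hypothalamus controls at 30 min (78.3 ± 3.83, n = 3). None of its 17 steps exceeded the larger SD.

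Nufip2 ranged from 26.22 to 59.3 CPM, with a highest group mean 1.68 times the lowest, the largest such ratio of the Roquin group. Its top group was the amygdala intruder group at 120 min (53.7 ± 3.91 CPM, n = 5) and its bottom group the frontal cortex intruder group at 60 min (32.1 ± 5.70, n = 5). Elavl1 was the steadiest member, at 75.87 to 105.1 CPM and a ratio of 1.22 between its extreme group means. The hypothalamus intruder group at 120 min (101.6 ± 2.86 CPM, n = 5) led its order and the frontal cortex intruder group at 60 min (83.0 ± 5.60, n = 5) closed it. No step between neighbouring groups in the order exceeded the larger SD for either gene. That says little about groups farther apart in the order, such as an intruder group and its controls.

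**Figure D1:**
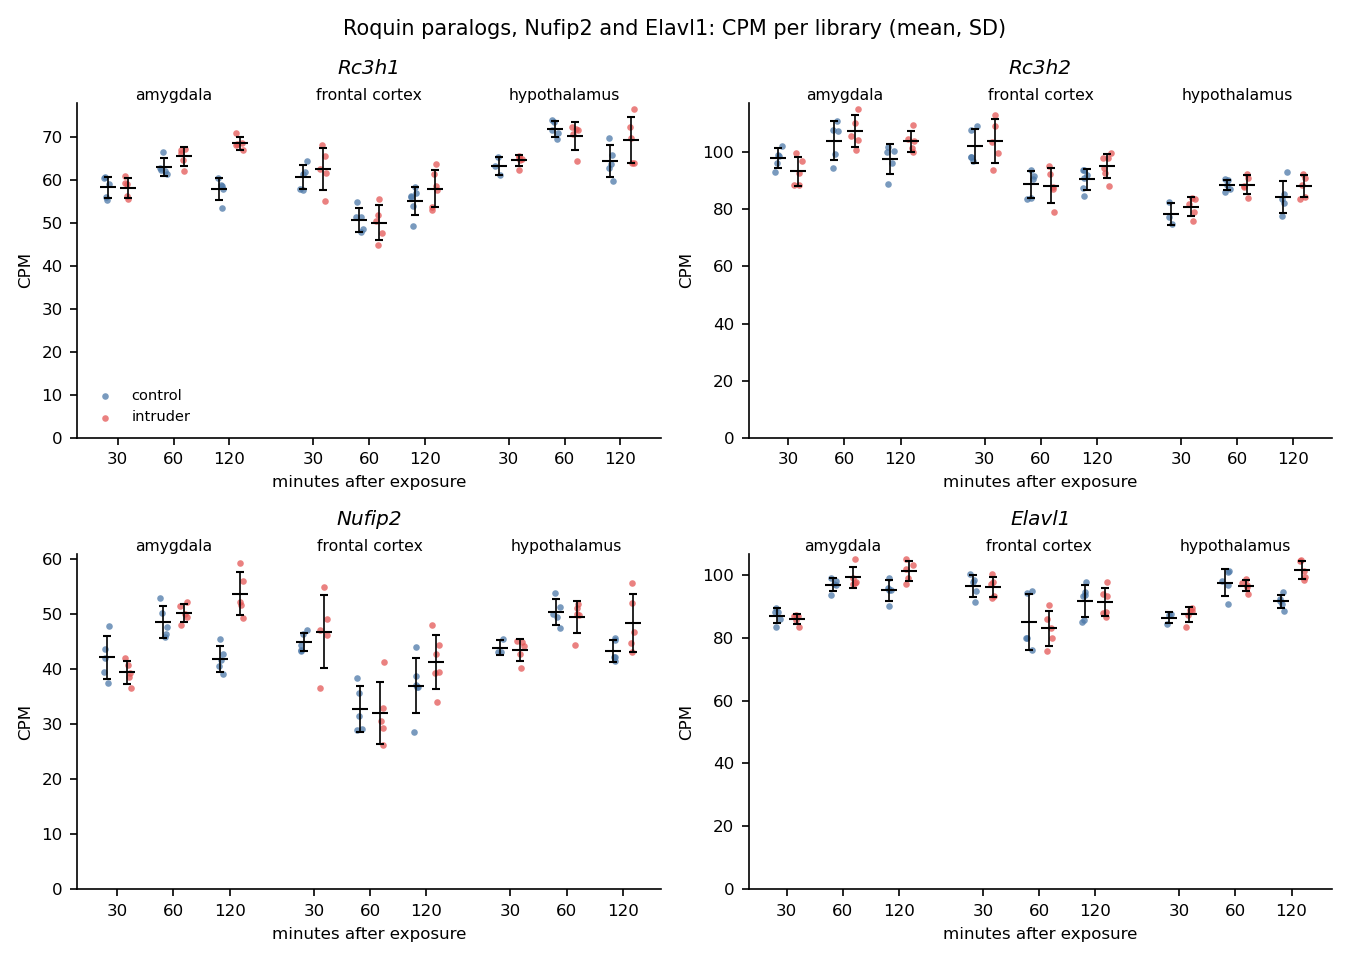
CPM of Rc3h1, Rc3h2, Nufip2 and Elavl1 in each library (points) with group mean and SD (bars), by region and minutes after exposure, controls and intruder groups side by side. Frontal cortex falls from 30 to 60 min for all 4 genes, while amygdala and hypothalamus sit higher at 60 min, and the amygdala intruder points at 120 min lie above the controls for Rc3h1 and Nufip2.

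Zfp36, an immediate early gene in many cells, was low here, at 92 to 223 reads per library and 1.996 to 4.65 CPM. Its group means ran from 2.84 ± 0.512 CPM in amygdala controls at 120 min to 3.87 ± 0.306 in the frontal cortex intruder group at 60 min, and none of its 17 steps exceeded the larger SD. Zfp36l1 had the largest ratio of all members between its extreme group means, 1.76. It was highest in the hypothalamus intruder group at 30 min (37.0 ± 4.69 CPM, n = 5) and lowest in the frontal cortex intruder group at 60 min (21.0 ± 1.39, n = 5). Zfp36l2 had the same highest and lowest groups, at 37.7 ± 3.91 and 25.5 ± 1.46 CPM. Of its steps, 1 of 17 exceeded the larger SD, between the amygdala controls (30.4 ± 2.15) and the amygdala intruder group (28.1 ± 0.605) at 60 min.

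**Figure D2:**
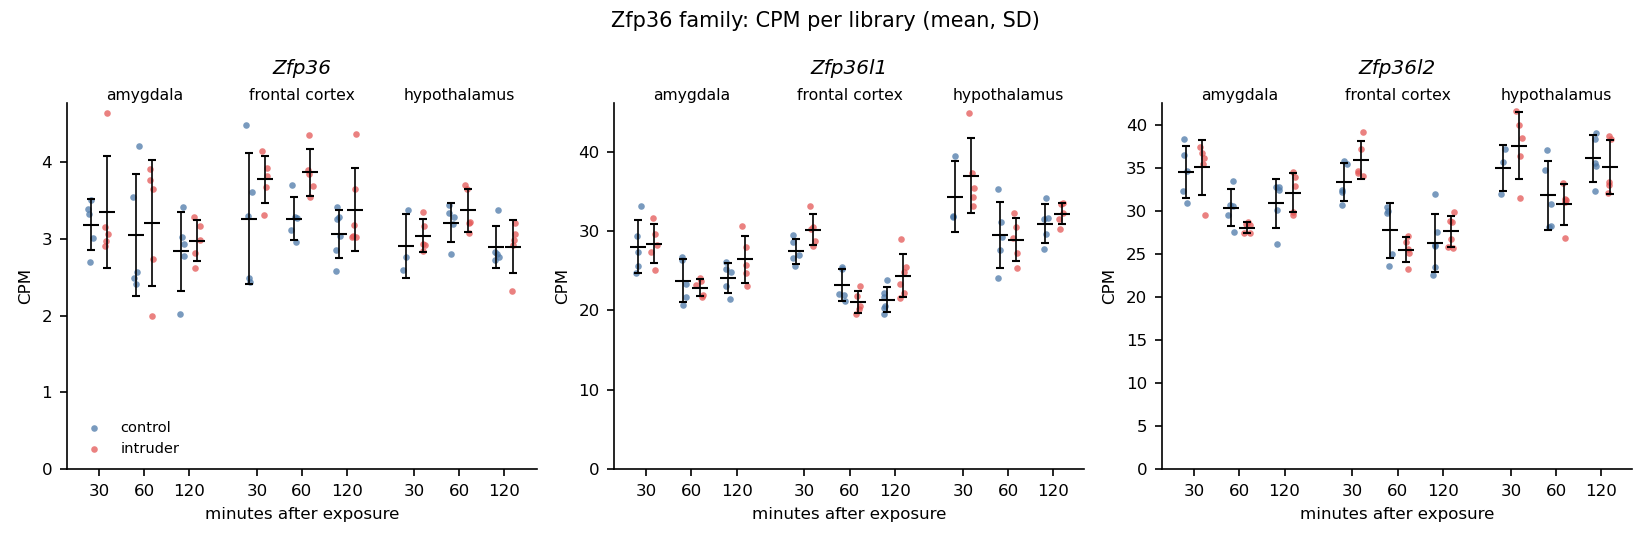
CPM of Zfp36, Zfp36l1 and Zfp36l2 in each library (points) with group mean and SD (bars), laid out as in the plot of the Roquin group. Zfp36l1 means are highest at 30 min in each region and condition, and Zfp36l2 means likewise except in hypothalamus controls. For Zfp36, at 1.996 to 4.65 CPM, no step between neighbours in the order of its group means exceeds the larger SD. Side by side, its frontal cortex groups at 60 min lie at 3.27 ± 0.278 CPM in controls and 3.87 ± 0.306 in intruder libraries.

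The members are themselves possible targets of AU-rich element binders, and the shared site is short enough to show. The nonamer TTATTTATT, the core AU-rich motif of the tristetraprolin family, was searched on the sense strand of the 3′ UTR of each gene's principal transcript in GENCODE M21. Each line gives 27 bases with the nonamer in capitals, and for Elavl1 the first of 8 overlapping or neighbouring sites.
Rc3h1: ctttactcaTTATTTATTgagatgagg
Rc3h2: aaagacattTTATTTATTttactctgt
Elavl1: tcatgaaaaTTATTTATTtatttattt
Zfp36: atgacgactTTATTTATTgtattaaga
Zfp36l1: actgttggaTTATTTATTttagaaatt
Zfp36l2: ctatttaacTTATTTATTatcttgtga
Nufip2 held 0 sites in a 3′ UTR of 3006 bases. Long 3′ UTRs hold the nonamer often: among UTRs of like length, 28.6% do so at the length of Rc3h1, 22.6% for Rc3h2, 18.5% for Elavl1, 13.9% for Nufip2, 9.98% for Zfp36l1, 9.87% for Zfp36l2 and 4.34% for Zfp36. A match is a description of the letters and not a measured binding site.

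Promoter windows are shown for Rc3h1 and Nufip2, the members that stood apart in amygdala in the comparison behind the choice, and for Zfp36, the immediate early gene among the members. Each is the 250 bases before the RefSeq start on GRCm38.p6, with GC, CCAAT, EGR and CArG motifs in capitals, each searched on both strands. The Rc3h1 window (chr1:160906161-160906410, plus strand) holds 5 GC boxes (GGGCGG). The Nufip2 window (chr11:77685889-77686138, plus strand) holds 1 GC box and 1 CCAAT box. The Zfp36 window (chr7:28379229-28379478, minus strand) holds an EGR site (GCGGGGGCG) and a CArG box, the element bound by serum response factor, which overlaps a GC box.
Rc3h1: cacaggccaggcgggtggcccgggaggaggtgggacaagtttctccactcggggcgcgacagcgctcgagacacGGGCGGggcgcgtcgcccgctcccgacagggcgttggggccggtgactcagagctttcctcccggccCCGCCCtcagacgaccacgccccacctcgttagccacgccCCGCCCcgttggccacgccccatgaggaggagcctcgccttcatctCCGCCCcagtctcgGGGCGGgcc
Nufip2: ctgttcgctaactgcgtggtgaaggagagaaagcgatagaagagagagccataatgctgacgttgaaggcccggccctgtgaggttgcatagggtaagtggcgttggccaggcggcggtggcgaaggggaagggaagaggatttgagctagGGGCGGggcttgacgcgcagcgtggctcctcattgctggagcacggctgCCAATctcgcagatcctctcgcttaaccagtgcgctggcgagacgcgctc
Zfp36: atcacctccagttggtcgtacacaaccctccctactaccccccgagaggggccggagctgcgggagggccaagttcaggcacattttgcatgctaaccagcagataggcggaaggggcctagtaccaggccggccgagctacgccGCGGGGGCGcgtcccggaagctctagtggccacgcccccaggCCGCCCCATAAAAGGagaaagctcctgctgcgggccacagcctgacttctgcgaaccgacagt
The Nufip2 window also holds 2 CRE core sites (TGACG) and the Zfp36 window a TATA-like ATAAAA inside the CArG box, neither set apart in capitals, and the full CRE (TGACGTCA) is in none of the 3 windows. Of 32851 RefSeq promoter windows of that length, 17.8% hold a CRE core site, 17% ATAAAA, 1.55% the full CRE, 32.7% hold a GC box, 33.8% a CCAAT box, 2.57% the EGR site and 1.47% a CArG box. No EGR site or CArG box was found in the windows of Rc3h1, Rc3h2, Nufip2, Elavl1 or Zfp36l1, which says only that these letters are not in those windows.

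The comparison behind the choice of genes was intruder against control at 120 min. In amygdala, Rc3h1 was at 53.5, 57.9, 60.5, 58.7 and 58.6 CPM in the 5 controls and at 66.8, 68.0, 70.9, 68.2 and 68.6 CPM in the 5 intruder libraries. The groups did not overlap, and the log2 fold change was 0.25 (SE 0.0364). Nufip2 was at 39.2, 45.5, 42.8, 41.7 and 40.5 CPM in controls and at 59.3, 51.7, 52.3, 49.4 and 56.0 CPM in intruder libraries. These groups did not overlap either (2 members, and 1.5% of all genes with the intruder group higher), with a log2 fold change of 0.36 (SE 0.0582), which corresponds to a fold of 1.28.

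In the same amygdala libraries the other members had smaller estimates, and Elavl1 was the one of the 3 chosen genes outside the call. Elavl1 (log2 fold change 0.09, SE 0.0306), Rc3h2 (0.09, SE 0.0472), Zfp36l1 (0.13, SE 0.0851), Zfp36 (0.07, SE 0.176) and Zfp36l2 (0.06, SE 0.0696) overlapped between the groups. All 7 estimates lay above 0, with a median of 0.0937 against 7e-04 over all genes tested. This comparison was used to choose 3 of the 7 genes, so nothing is read from the signs or the median. Elsewhere 6 of 7 lay above 0 in frontal cortex at 30 and 120 min and in hypothalamus at 30 min. Of the members, 2 were called, Rc3h1 and Nufip2, where 0.538% of all genes were (0.295% as higher), and nothing is read from that count because it fixed the choice. All 5 controls carried 1 leading index, which 1 of the 5 intruder libraries shared. That library had 68.6 CPM of Rc3h1 and 56.0 CPM of Nufip2, above all 5 controls. Its Elavl1, at 97.0 CPM, lay within the control range (89.96 to 99.1). A single library from the comparison behind the choice gives a description only. With the leading index as a block 0 members were called, at log2 fold changes of 0.25 (SE 0.0625) for Rc3h1, 0.42 (SE 0.1) for Nufip2 and 0.03 (SE 0.0538) for Elavl1. With these groups fitted alone 0 were called as well, at 0.25, 0.36 and 0.09.

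In hypothalamus at 120 min the member called was Elavl1, where 0.192% of all genes were called (0.0226% as higher), and nothing is read from that count for the same reason. Elavl1 was at 88.6, 94.5, 92.4, 91.5 and 90.8 CPM in controls and at 104.5, 101.3, 104.6, 98.5 and 99.3 CPM in intruder libraries. The groups did not overlap (log2 fold change 0.15, SE 0.0292), as for 0.487% of all genes with the intruder group higher, and the 3 controls that share the intruder libraries' leading index lay at 88.6 to 94.5 CPM. Nufip2 (0.16, SE 0.0561) and Rc3h1 (0.10, SE 0.0446) were not called, and their groups overlapped. Rc3h2 (0.06), Zfp36l1 (0.05), Zfp36 (-0.0033) and Zfp36l2 (-0.04) overlapped too, and 5 of 7 estimates lay above 0. Leaving out any 1 of 6 of the 10 libraries (controls 1, 3, 4 and 6, intruder animals 1 and 3) left 0 members called, as did the leading index as a block, no filter on low counts and these groups fitted alone, where Elavl1 was at 0.1425, 0.1447 and 0.1449 on the log2 scale.

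Markers of vessels differed in level between the conditions in hypothalamus at 120 min. Summed endothelial markers (Cldn5, Pecam1, Flt1 and others) were at 103.1 to 156.8 CPM in intruder libraries and 166.8 to 189.6 in controls, and 8 of 8 were lower, 4 of them called. Summed mural markers were at 92.8 to 116.2 against 139.3 to 172.8 CPM. The exact two-sided permutation p was 0.00794 for either score, the smallest that 5 against 5 libraries allow, and 0.357 after adjustment over 90 scores. Blood markers lay at 58.3 to 88.9 against 77.2 to 135.8 CPM. These sums overlapped, as did astrocyte, oligodendrocyte, microglial and neuronal sums. In amygdala at 120 min the endothelial markers were also lower in 8 of 8 genes, with 1 of them called and overlapping sums (121.9 to 172.9 against 137.2 to 239.7 CPM). Of the mural markers there, 2 of 7 were lower, 1 of them called, and the sums overlapped (138.1 to 243.6 against 154.7 to 211.1 CPM). Oligodendrocyte markers were higher in 5 of 5 genes with 0 called (2910 to 6213 against 2254 to 4828 CPM, exact two-sided permutation p = 0.175, 0.998 after adjustment). The part of these markers in the differences of Elavl1, Rc3h1 and Nufip2 was not tested.

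**Figure D3:**
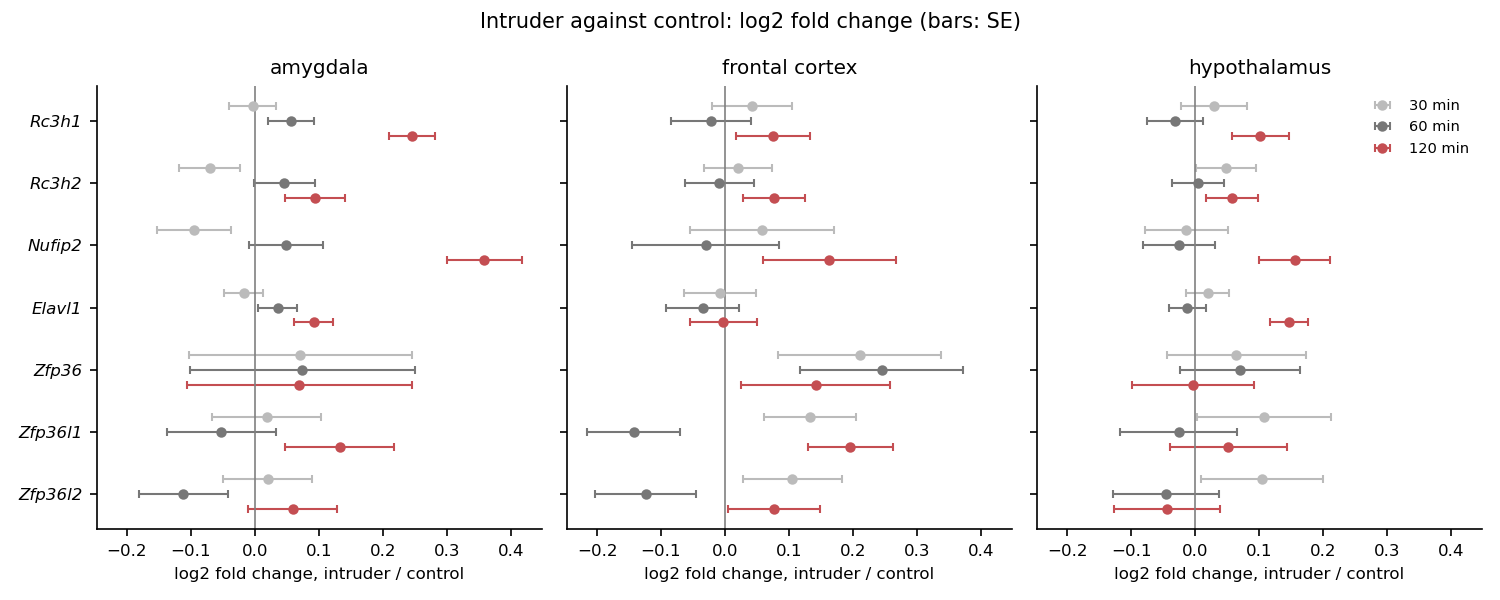
Log2 fold change, intruder against control, of the 7 members in each region at 30, 60 and 120 min (points) with SE (bars). Estimates at 30 and 60 min lie on both sides of 0 in each region. In frontal cortex 6 of 7 lie above 0 at 30 min and 1 of 7 at 60 min. In hypothalamus it is 6 of 7 and 2 of 7. At 120 min all 7 lie above 0 in amygdala, led by Nufip2 (0.36) and Rc3h1 (0.25), and 6 of 7 in frontal cortex. The amygdala contrast at 120 min is among those by which the genes were chosen.

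Outside that contrast no difference between intruder and control was called. At 30 and 60 min, 0 of 7 members passed the test in amygdala, frontal cortex or hypothalamus, and 0 of all genes did (0% called). The smallest unadjusted p of a member at these times was 0.0598, for Zfp36l1 in frontal cortex at 60 min (log2 fold change -0.14, SE 0.0728), and 0 members had an unadjusted p below 0.05. That was so for 2.74% and 7.13% of all genes in amygdala, 6.28% and 2.54% in frontal cortex and 1.92% and 2.22% in hypothalamus at 30 and 60 min, and DESeq2 and voom also called 0 genes. In amygdala at 30 min the 95% interval of the log2 fold change was -0.0748 to 0.068 for Rc3h1 and -0.0778 to 0.0424 for Elavl1. In frontal cortex at 30 min it was wider, at -0.0805 to 0.165 and -0.119 to 0.104. For Nufip2 in amygdala at 60 min it was -0.0652 to 0.163.

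Frontal cortex at 120 min was not used in the choice, though its libraries come in part from the same animals. There, 0 of 7 members and 0% of all genes were called, with an unadjusted p below 0.05 for 1 member and 5.34% of all genes. Nufip2 ranged from 28.61 to 44.02 CPM in 6 controls (median 37.02) and from 33.97 to 48.08 in 6 intruder libraries (median 41.12). The groups overlapped, and the log2 fold change was 0.16 (SE 0.104, adjusted p = 0.98 in edgeR). Rc3h1 (0.08, SE 0.0572) and Elavl1 (-0.0024, SE 0.0518) overlapped between the groups as well. Zfp36l1, at 19.58 to 23.89 CPM in controls and 21.52 to 29.05 in intruder libraries, had the smallest unadjusted p of the members there, 0.00587 (log2 fold change 0.20, SE 0.0663), and an adjusted p of 0.727. Neither the change of the intruder effect from 30 to 60 min within a region nor its difference between regions at 30 or at 60 min was called for any member (0% of all genes in each). At an unadjusted p below 0.05, the change of the intruder effect passed for 8.44% of amygdala genes, 3.48% of frontal cortex genes and 1.6% of hypothalamus genes, and its regional difference for 2.81% at 30 min and 3.63% at 60 min. In frontal cortex the former was -0.28 for Zfp36l1 (unadjusted p = 0.0113) and -0.23 for Zfp36l2 (unadjusted p = 0.0468), with adjusted p = 0.993 for both in edgeR.

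Members were called far more often between times than between conditions. In frontal cortex, 6 of 7 members fell between 30 and 60 min in controls (35.4% of all genes were called, 18.1% as lower), and 6 of 7 fell in intruder groups (45.5% called, 23.2% as lower). Zfp36 was the exception, at log2 changes of -0.01 and 0.03. The median log2 change of the 7 members was -0.253 in controls and -0.33 in intruder groups, against 0.002 and 0.0039 over all genes tested.

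Nufip2 fell most among the Roquin group. In frontal cortex controls it was at 46.4, 47.1, 44.4, 43.4 and 43.5 CPM at 30 min and at 28.9, 35.7, 38.3, 29.1 and 31.4 CPM at 60 min, so the times did not overlap, as for 5 of 7 members and 12.7% of all genes with 60 min lower. The log2 change was -0.47 (SE 0.114, adjusted p = 0.0021), and in the intruder groups it was -0.56 (SE 0.114, adjusted p = 0.00022), where the times overlapped (36.61 to 55.05 CPM at 30 min and 26.22 to 41.26 at 60 min). Rc3h1 was at 57.9, 61.4, 64.5, 57.7 and 61.7 CPM in controls at 30 min and at 48.5, 51.2, 54.9, 47.9 and 51.3 CPM at 60 min. These did not overlap, with log2 changes of -0.27 (SE 0.0628, adjusted p = 0.00161) in controls and -0.33 (SE 0.0628, adjusted p = 9.1e-05) in intruder groups. The intruder groups overlapped (55.00 to 68.05 CPM at 30 min and 44.82 to 55.45 at 60 min), and 3 of 7 members and 8.44% of all genes did not overlap there with 60 min lower. Rc3h2 (-0.21 and -0.24) and Elavl1 (-0.19 and -0.22) fell less.

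Zfp36l1 and Zfp36l2 fell with them in frontal cortex, more so by estimate in the intruder groups. Zfp36l1 was at 30.5, 28.1, 28.8, 33.2 and 30.3 CPM in intruder libraries at 30 min and at 19.6, 23.1, 21.8, 20.5 and 20.2 CPM at 60 min. The times did not overlap, and the log2 change was -0.53 (SE 0.0725, adjusted p = 1.97e-06), against -0.25 (SE 0.0723, adjusted p = 0.00722) in controls. Zfp36l2 changed by -0.50 (SE 0.0784, adjusted p = 8.59e-06) in intruder groups and -0.27 (SE 0.0783, adjusted p = 0.00724) in controls. The difference between the conditions is the interaction given above, which was not called.

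Other features of the frontal cortex libraries differed between these times as well. Reads outside annotated features made up 11 to 13.2% at 30 min and 8.63 to 10.3% at 60 min. Summed oligodendrocyte markers lay between 2206 and 3690 CPM at 30 min and between 3929 and 6377 at 60 min. Blood markers lay between 65.95 and 108.1 CPM at 30 min and between 107.8 and 179.4 at 60 min. Mural markers lay between 231 and 289.7 CPM at 30 min and between 159.2 and 228.8 at 60 min. The blood sums overlapped at their ends, and the neuronal sums overlapped widely, at 5491 to 7002 and 5623 to 6964 CPM. The 30 and 60 min libraries of frontal cortex share no leading index, so the change cannot be told apart from the index or the column tag. The part of the other features in the fall of the members was not tested.

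In amygdala the same step went the other way for the Roquin group. In intruder groups, 4 members rose and 2 fell, where 7.41% of all genes were called (4.71% as higher, 2.7% as lower). Nufip2 was at 39.4, 42.1, 38.5, 40.8 and 36.6 CPM at 30 min and at 52.3, 51.5, 48.1, 50 and 49.5 CPM at 60 min. The times did not overlap, as for all 4 members that rose (4.72% of all genes with 60 min higher) and both that fell (4.05% with 60 min lower), with a log2 change of 0.35 (SE 0.0583, adjusted p = 0.00121). Elavl1 (0.21, SE 0.0307, adjusted p = 0.000415), Rc3h2 (0.20, SE 0.0473, adjusted p = 0.00988) and Rc3h1 (0.17, SE 0.0364, adjusted p = 0.0056) rose too. Zfp36l1 (-0.31, SE 0.0851, adjusted p = 0.0254) and Zfp36l2 (-0.32, SE 0.0697, adjusted p = 0.00639) fell, and Zfp36 was at -0.06 (SE 0.175). All 5 libraries at 30 min carried 1 leading index and all 5 at 60 min another. With the index as a block 0 members were called, although Nufip2 was at 0.43 and Rc3h1 at 0.17, with adjusted p = 0.381 and 0.67. Summed hypothalamic markers lay between 12.76 and 42.24 CPM in these libraries at 30 min and between 4.275 and 9.544 at 60 min, and astrocyte markers between 1207 and 1377 and between 1366 and 1459 CPM. The astrocyte sums overlapped at their ends, and neuronal, oligodendrocyte, microglial, endothelial, mural and blood sums overlapped too. The part of these markers in the changes was not tested.

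In amygdala controls Elavl1 was the 1 member called, going from 83.4, 88.1, 88.2, 89.5 and 85.8 CPM at 30 min to 96.6, 98.1, 96.9, 93.7 and 99.0 CPM at 60 min. The times did not overlap, as for 0.839% of all genes with 60 min higher (log2 change 0.15, SE 0.0307, adjusted p = 0.0288), where 0.133% of all genes were called (0.11% as higher). The call was lost without any 1 of 7 of the 10 libraries (30 min controls 1, 2, 3 and 5, 60 min controls 2, 3 and 6), and also without a filter, with a replicate block, with the index block or with these groups fitted alone. Nufip2 was at 0.21 (adjusted p = 0.171) and Rc3h1 at 0.11 (adjusted p = 0.251). Astrocyte sums lay at 1191 to 1423 CPM at 30 min and 1421 to 1462 at 60 min in these controls and blood sums at 51.41 to 126.1 and 105.2 to 134, and their part was not tested.

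In hypothalamus few members were called. In intruder groups Elavl1 was called, where 0.0792% of all genes were (0.0453% as higher): it went from 83.4, 87.3, 88.3, 89.5 and 88.9 CPM at 30 min to 96.0, 96.9, 98.6, 93.8 and 97.4 CPM at 60 min (log2 change 0.15, SE 0.0291, adjusted p = 0.045). The times did not overlap, as for 1.57% of all genes with 60 min higher, but the call was lost without any 1 of 9 of the 10 libraries, all but the intruder library 4 at 60 min. It was also lost without a filter, with voom, with a replicate block and with the index block. Summed hypothalamic markers lay at 960.6 to 1405 CPM at 30 min and 799.7 to 1000 at 60 min in the intruder groups. Astrocyte sums lay at 1174 to 1280 and 1272 to 1357 CPM in the same libraries, and the part of these markers was not tested. In controls, with 3 libraries at 30 min, 0 members were called (0.017% of all genes) and 5 had an unadjusted p below 0.05, as had 7.55% of all genes. Elavl1 was at 0.18 (SE 0.0338, adjusted p = 0.0619). DESeq2 called Elavl1 and Rc3h2 in that comparison. In intruder groups Zfp36l1 was at -0.35 (SE 0.0909, adjusted p = 0.191) and Zfp36l2 at -0.29 (SE 0.0827, adjusted p = 0.269).

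**Figure D4:**
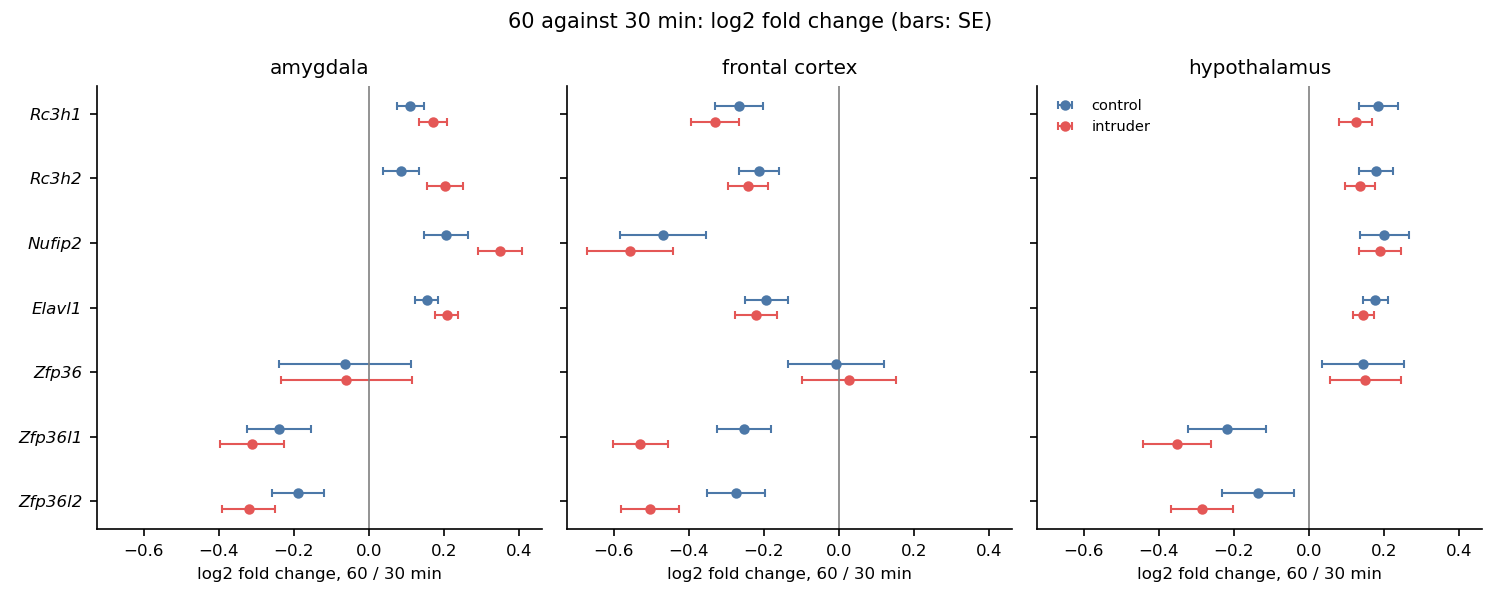
Log2 change from 30 to 60 min of the 7 members in amygdala, frontal cortex and hypothalamus, in controls and intruder groups (points) with SE (bars). The Roquin group and Elavl1 lie below 0 in frontal cortex and above 0 in the other regions, while Zfp36l1 and Zfp36l2 lie below 0 in all 3 regions.

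Whether this change differed between regions was tested directly, in a comparison added after the data were seen. It differed for 4 of 7 members in controls (23.2% of all genes) and 4 of 7 in intruder groups (37.8%), and these were Rc3h1, Rc3h2, Nufip2 and Elavl1 in either condition. Adjusted p-values in edgeR for controls and intruder groups were 5.84e-06 and 2.14e-08 for Rc3h1. They were 0.000267 and 2.03e-06 for Rc3h2. For Nufip2 they were 1.81e-05 and 2.28e-08, and for Elavl1 1.88e-05 and 2.29e-07. For Zfp36, Zfp36l1 and Zfp36l2 they were 0.802, 0.994 and 0.728 in controls and 0.72, 0.372 and 0.257 in intruder groups, which does not show that their changes were alike. Leaving out any 1 of 20 animals in turn kept the count at 4 in each condition. The 30 and 60 min libraries share no leading index in frontal cortex, nor in the amygdala intruder groups. The regional difference therefore cannot be told apart from the index.

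The frontal cortex libraries at 120 min share no leading index with those at 30 min either. Reads outside annotated features were 11 to 13.2% at 30 min and 9.46 to 11.3% at 120 min. Summed mural markers were at 231 to 289.7 and 190.2 to 214.7 CPM in intruder groups. In controls endothelial markers were at 357 to 381.5 and 312.1 to 356.5 CPM, without overlap, and in intruder groups they overlapped (326 to 414.5 and 309.9 to 361.2). Oligodendrocyte markers in controls overlapped, at 2814 to 3589 and 3428 to 5417 CPM. The part of these markers in the changes was not tested. In frontal cortex at 120 min against 30 min, 3 of 7 members were lower in controls (4.42% of all genes called, 2.48% as lower): Rc3h2 (log2 change -0.18, SE 0.0512, adjusted p = 0.0371), Zfp36l1 (-0.37, SE 0.0692, adjusted p = 0.00312) and Zfp36l2 (-0.35, SE 0.0748, adjusted p = 0.00732). In intruder groups 2 were lower (17.7% called, 8.66% as lower), Zfp36l1 (-0.31, SE 0.0687, adjusted p = 0.00349) and Zfp36l2 (-0.38, SE 0.0745, adjusted p = 0.00131). The step from 60 to 120 min, added after the data were seen, lies within 1 column tag. In intruder groups 3 members rose over it (22.9% called, 12.9% as higher): Nufip2 (0.37, SE 0.11, adjusted p = 0.0156), Rc3h1 (0.22, SE 0.0603, adjusted p = 0.0113) and Zfp36l1 (0.22, SE 0.0697, adjusted p = 0.0228). This count rests on single libraries of the 60 min intruder group: it was 0 without animal 4, 1 without animal 5 and 5 without animal 1. It was also 0 with the index as a block and 1 with these groups fitted alone. In controls 0 members were called (15.9% of all genes) and 0 had an unadjusted p below 0.05, against 32.1% of all genes, with Nufip2 at 0.18 and Rc3h1 at 0.12.

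In amygdala and hypothalamus, the 4 members that could be tested against 120 min libraries gave 1 call. Rc3h2 was higher at 120 than at 30 min in amygdala intruder groups (0.16, SE 0.0472, adjusted p = 0.0256), where 15% of all genes were called (8.86% as higher). The call was lost without any 1 of 7 of the 10 libraries (30 min intruder animals 3, 4 and 5, 120 min intruder animals 1, 3, 4 and 6). It was also lost without a filter, with a replicate block and with the index block. Summed endothelial markers in these libraries lay at 215.7 to 259.2 CPM at 30 min and 121.9 to 172.9 at 120 min. Astrocyte sums lay at 1207 to 1377 and 1311 to 1870 CPM, and the part of these markers was not tested. For 120 against 30 min the background was 0.145% in amygdala controls, 0.175% in hypothalamus controls and 1.93% in hypothalamus intruder groups, with 0 members called. For 120 against 60 min it was 0.0232% and 0.0695% in amygdala controls and intruder groups and 0.0396% and 0.441% in hypothalamus, again with 0 members called by edgeR, DESeq2 or voom. At an unadjusted p below 0.05 there were 2, 1 and 2 of the 4 testable members for 120 against 30 min in that order, where 7.51%, 10.2% and 15.1% of all genes passed. For 120 against 60 min there were 0, 2, 1 and 2, where 9.53%, 11.1%, 8.49% and 12.2% of all genes passed. As a description, Nufip2 in amygdala controls was 0.21 lower on the log2 scale at 120 than at 60 min (48.6 to 41.9 CPM), while in intruder groups it was 0.10 higher (50.3 to 53.7 CPM). Rc3h1 showed the same, at 63.0 to 57.8 CPM in controls and 65.4 to 68.5 CPM in intruder groups, while controls at 30 min were at 58.3 CPM.

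Regions were compared over the 30 and 60 min libraries (20 amygdala, 20 frontal cortex and 18 hypothalamus libraries), which the choice of genes did not use. Most genes differ between regions, so these calls are common: 70.4% of genes were called between amygdala and frontal cortex, 84.6% between hypothalamus and frontal cortex and 76.5% between amygdala and hypothalamus. By direction, 36.1% were higher in amygdala than in frontal cortex, 42.9% were higher and 41.7% lower in hypothalamus than in frontal cortex, and 38.1% were higher and 38.3% lower in amygdala than in hypothalamus. Hypothalamus had more Rc3h1 (67.9 ± 4.19 CPM, SD, n = 18) than frontal cortex (56.0 ± 6.74, n = 20), with a log2 difference of 0.27 (SE 0.0235, adjusted p = 4.72e-15). Rc3h2 went the other way, at 84.8 ± 5.31 and 95.8 ± 9.38 CPM (-0.19, SE 0.0256, adjusted p = 1.97e-09). These differences depended on the time. At 30 min Rc3h1 was at 63.2 and 64.5 CPM in hypothalamus controls and intruder groups and at 60.6 and 62.5 in frontal cortex, and at 60 min at 71.8 and 70.1 against 50.7 and 50.01. Rc3h2 was lower in hypothalamus at 30 min (78.3 and 80.9 against 102.3 and 103.9 CPM) and level with frontal cortex at 60 min (88.6 and 88.7 against 88.8 and 88.3).

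Against frontal cortex, hypothalamus was called for 6 of 7 members. Nufip2 (0.27, SE 0.0416, adjusted p = 5.76e-08), Zfp36l1 (0.35, SE 0.0448, adjusted p = 6.63e-10) and Zfp36l2 (0.15, SE 0.0394, adjusted p = 0.000725) were higher, Zfp36 was lower (-0.18, SE 0.0757, adjusted p = 0.0266), and Elavl1 was at 0.02 (SE 0.022, adjusted p = 0.3). Amygdala was called for 3 of 7 members, all higher: Nufip2 (0.21, SE 0.0402, adjusted p = 9.74e-06), Rc3h1 (0.12, SE 0.0226, adjusted p = 5.28e-06) and Rc3h2 (0.06, SE 0.0245, adjusted p = 0.0248). At 30 min the group means of these 3 genes were lower in amygdala than in frontal cortex, so the pooled differences come from 60 min: Nufip2 was at 42.1 and 39.5 CPM in amygdala controls and intruder groups against 45.0 and 46.9 at 30 min, and at 48.6 and 50.3 against 32.7 and 32.1 at 60 min. Nufip2 in hypothalamus was likewise not above frontal cortex at 30 min (43.9 and 43.5 CPM) and above it at 60 min (50.4 and 49.5). With the animal as a block, Zfp36 and Zfp36l2 were called as well, which makes 5. Between amygdala and hypothalamus 4 of 7 were called. Rc3h2 was higher in amygdala (0.25, adjusted p = 1.04e-12), and Rc3h1 (-0.15, adjusted p = 2.27e-07), Zfp36l1 (-0.34, adjusted p = 2.25e-09) and Zfp36l2 (-0.09, adjusted p = 0.0422) were lower there. Elavl1 was called in none of these 3 comparisons. Against frontal cortex its differences at the 2 times have opposite signs: in hypothalamus it was at 86.3 and 87.5 CPM against 96.5 and 96.2 in frontal cortex at 30 min, and at 97.5 and 96.5 against 84.9 and 83.0 at 60 min.

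**Figure D5:**
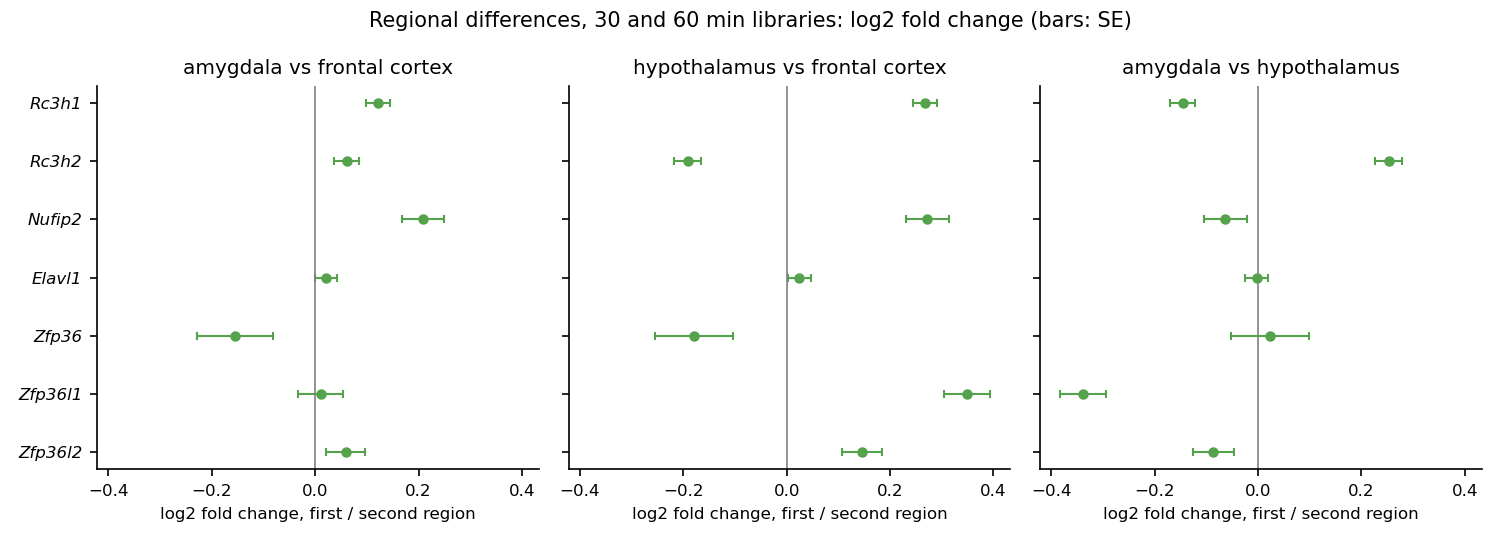
Log2 differences between regions of the 7 members over the 30 and 60 min libraries (points) with SE (bars), for each pair of regions. Pooled over both times, Rc3h1 is highest and Rc3h2 lowest in hypothalamus and Zfp36l1 is higher in hypothalamus than in either other region, while Elavl1 lies near 0, with differences against frontal cortex of opposite sign at 30 and 60 min.

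The machinery these proteins recruit was described with lists written when earlier results of these data were known. In the intruder comparisons at all 3 times and regions, 1 listed gene was called, Fxr1, a relative of FMRP, in amygdala at 120 min (68.4 ± 2.67 CPM in controls and 80.7 ± 7.81 in intruder libraries, log2 fold change 0.24, SE 0.0499, adjusted p = 0.0282 in edgeR). The adjusted p was 0.0565 without a filter on low counts, 0.256 with the leading index as a block and 0.216 with these groups fitted alone, and between 0.00192 and 0.0346 in the other 5 alternative fits. It belongs to the list of Nufip2 partners and stress granule proteins, of which 1 of 12 tested was called (0.538% of all genes), with a median of 0.0234 against 7e-04 over all genes. Of 28 deadenylation and decapping genes, 4 Regnase family genes, 12 other AU-rich element binders and 11 known targets, 0 were called there.

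In frontal cortex from 30 to 60 min, 35.4% of all genes were called in controls and 45.5% in intruder groups, and the counts of the lists stand against those shares. Of the 28 deadenylation and decapping genes 17 were called in controls (4 higher, 13 lower, median -0.1213 against 0.002 over all genes) and 20 in intruder groups (5 higher, 15 lower, median -0.151 against 0.0039). Xrn1, the cytoplasmic exonuclease that degrades decapped messages, fell from 14.1 ± 1.42 to 6.48 ± 1.28 CPM in controls (log2 change -1.13, SE 0.216, adjusted p = 0.000256) and by 1.30 in intruder groups (adjusted p = 1.69e-05). The decapping enzyme gene Dcp2 changed by -0.41 and -0.47, and Pan3, a subunit of the PAN2-PAN3 deadenylase, by -0.23 and -0.30. Cnot8, a catalytic subunit of CCR4-NOT, rose by 0.14 in either condition.

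Among the other lists in frontal cortex, 2 of 4 Regnase family genes fell in either condition, Zc3h12c (-0.72 and -0.89) and Zc3h12b (-0.32 and -0.37). The Regnases are endonucleases that cleave stem-loop targets shared with Roquin. Other AU-rich element binders were called in 8 of 12 cases in controls (1 higher, 7 lower) and 10 of 12 in intruder groups (1 higher, 9 lower). Celf1 fell by 0.30 and 0.36, whereas Elavl3, a neuronal relative of HuR, rose by 0.11 and 0.14. Of the Nufip2 partners, 3 of 12 fell in controls, while in intruder groups 3 fell and Fxr2 rose by 0.14. Fmr1, which encodes FMRP, fell by 0.33 and 0.42. Of 11 known targets tested, 1 fell in controls (Vegfa) and 6 in intruder groups, Ier2 (-0.76), Ptgs2 (-0.59) and Dusp1 (-0.67) among them. The medians were -0.1915 and -0.2243, and the difference between the conditions was not called for any of them in edgeR.

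In amygdala intruder groups from 30 to 60 min, 6 of 28 deadenylation and decapping genes were called, where 7.41% of all genes were. Pan3 (0.25), Dcp2 (0.20) and Cnot7 (0.15) were among 4 that rose, and the fallers were Tob1 (-0.27) and Btg2 (-0.86), which encode antiproliferative adaptors of CCR4-NOT. Fmr1 rose by 0.25 (adjusted p = 0.000623), as did Celf1 (0.25) and Pum2 (0.20), which binds Pumilio elements. Of the known targets, 3 of 11 fell: Fos (-0.93, adjusted p = 0.000824), Ier2 (-0.57) and Dusp1 (-0.54). In hypothalamus intruder groups, where 0.0792% of all genes were called, 1 of 28 deadenylation genes, Btg2 (-1.06, adjusted p = 1.21e-06), and 2 of 11 targets, Fos (-1.17, adjusted p = 0.000336) and Dusp1 (-0.45, adjusted p = 0.00899), fell. These targets are immediate early genes, and how far their course after the exposure involves the regulators was not tested.

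At 120 against 30 min in amygdala intruder groups, Dcp2 (0.27), Ddx6 (0.14), a decapping activator, and Cnot4 (0.15) were among the 9 of 28 deadenylation and decapping genes that rose, and Btg2 (-1.16, adjusted p = 4.43e-05), Tob1 (-0.17) and Parn (-0.16) fell, where 15% of all genes were called (8.86% as higher). The median of the 28 genes was -0.0166 on the log2 scale, against 0.0011 over all genes. Endothelial sums in these amygdala libraries lay at 215.7 to 259.2 CPM at 30 min and 121.9 to 172.9 at 120 min. The part of these markers in the changes was not tested. Fxr1 (0.29, adjusted p = 0.00047), Fmr1 (0.20) and Caprin1 (0.16) rose among the 12 Nufip2 partners. Of the known targets 5 of 11 fell, with Fos at 49.0 ± 3.90 CPM at 30 min and 17.6 ± 1.94 at 120 min (-1.48, adjusted p = 2.44e-06). In amygdala controls, where 0.145% of all genes were called, 4 of 11 targets fell, Fos by 1.28, and 0 of 28 deadenylation genes were called. In hypothalamus Fos fell by 1.74 in either condition, and Fxr1 rose by 0.23 in intruder groups (adjusted p = 0.00699). Endothelial sums in these hypothalamus intruder libraries lay at 186 to 199.6 CPM at 30 min and 103.1 to 156.8 at 120 min. Mural sums lay at 152.4 to 162.8 and 92.79 to 116.2 CPM, and the part of these markers was not tested.

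The genes with the most similar course to each member were found over the 18 group means of log2(CPM + 1), with the mean of each region removed, among 16634 other genes measured in all 3 regions. These groups include the 120 min libraries by which Rc3h1, Nufip2 and Elavl1 were chosen, and the column tag differs between 30 min and later groups, so the correlations are a description and the likeness of the chosen genes is in part built in. Rc3h1 was closest to Nufip2 (Pearson r = 0.98), Cnot6l (0.98), which encodes a CCR4-NOT deadenylase, and Naa15 (0.97). Nufip2 in turn was closest to Rc3h1, Nbeal1 (0.98) and Phip (0.98). Rc3h2 was closest to Pan3 (0.96), Ythdf3 (0.96), which encodes a reader of methylated adenosine, and Zfp451 (0.95). Elavl1 was closest to Dyrk1a (0.96), Psme4 (0.95) and Sfpq (0.95). Over the 12 group means at 30 and 60 min alone, an alternative added after the data were seen, r between Rc3h1 and Nufip2 was 0.98, but other genes were closer: Nufip2 ranked 34 for Rc3h1, whose nearest gene was Nf1 (0.99), and Rc3h1 ranked 133 for Nufip2, whose nearest was Mib1 (0.998).

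Zfp36l1 and Zfp36l2 followed another course, which Zfp36 did not share (r = 0.0742 and 0.0131 with them). Zfp36l1 and Zfp36l2 were each other's closest gene (r = 0.95), followed by Sox9 (0.90), a glial transcription factor gene, and Nt5dc1 (0.88) for Zfp36l1 and by Nt5dc1 (0.93) and Fam161b (0.88) for Zfp36l2. Zfp36 was less like any gene, with Chia1 (0.84), Oas1a (0.82) and Apobec3 (0.81) at the top. Between Rc3h1 and Zfp36l1 r was 0.21, and between Rc3h1 and Zfp36 0.065. Over the 30 and 60 min groups alone Zfp36l1 and Zfp36l2 were again each other's closest gene (0.99).

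Within groups, once group means were removed, Rc3h1 and Nufip2 also varied together from library to library, with r = 0.52 over 30 amygdala, 0.87 over 32 frontal cortex and 0.70 over 28 hypothalamus libraries. Without the 2 libraries farthest from the median of Rc3h1, r was 0.47, 0.82 and 0.55. Rc3h1 and Nufip2 were not alone in this. In the same order Rc3h2 and Elavl1 had r = 0.68, 0.70 and 0.54, and Rc3h1 and Rc3h2 0.33, 0.83 and 0.60. Zfp36l1 and Zfp36l2 had r = 0.60, 0.51 and 0.59. Libraries of a group share a time and often a leading index, and these values describe libraries and not animals alone. Across regions of the same animal, Zfp36l2 deviations had r = 0.77 between amygdala and hypothalamus (28 animals), 0.57 between amygdala and frontal cortex (30 animals) and 0.55 between frontal cortex and hypothalamus (28 animals). In the same order Zfp36l1 had 0.57, 0.067 and 0.44, and Rc3h1 0.40, 0.18 and 0.21.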

How the data were processed

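Poly(A) RNA from dissected brain regions was sequenced as single-end reads from stranded libraries, per the labels' protocols. The authors deposited 1 table of read counts per Ensembl gene for 90 libraries. The submitters' processing notes name CASAVA 1.8.2, TopHat2 2.0.8, HTSeq 0.6.1, edgeR 3.2.4, R 3.0.0 and build NCBIM37, without saying which step used which. The 5 rows that name no gene were left out of library sizes; reads outside annotated features were 8.63 to 14.5% per library.

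The 7 members and all gene lists were chosen with earlier results of these data known. Counts were analysed with edgeR 4.0.16 in R 4.3.3 (filterByExpr, trimmed mean of M-values, quasi-likelihood F test, Benjamini-Hochberg over all genes), with 1 fit per region over its 6 groups and 1 over 12 groups of 30 and 60 min libraries for regional comparisons. Filters left 17277 amygdala, 17091 frontal cortex and 17676 hypothalamus genes. Of 37 comparisons, 8 were added after the data were seen. Marker sums were compared by exact two-sided permutation of log2(CPM + 1) scores over 90 list and group pairs. Alternatives were other scalings, no filter, DESeq2 1.42.0, voom in limma 3.58.1, blocks on replicate number, leading index or animal, groups fitted alone and libraries left out. The closest pair of libraries within a group differed by 4.2 times sampling noise (chi-square per degree of freedom, 183 pairs), so none was counted as a duplicate. The genes named were the members, their 3 most similar genes and, per list, the called genes with the smallest adjusted p in each direction.

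Symbols were matched for 32919 of 37991 identifiers. Cryba1 (at most 7 reads) and Ccl25 (at most 224) lie opposite Nufip2 and Elavl1. Promoters are from RefSeq on GRCm38.p6, which had 6 of the 7 members, and 3′ UTRs from GENCODE M21; no coordinates were carried over to NCBIM37. A marker check of the cortical libraries is not reported here.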

Additional observations from a re-analysis of the deposited data

Results flagged for a closer look

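In 119 tests of a single library standing far from its group, 8 did so, and chance gives about 1 in 20. Rc3h1 was highest in amygdala control 1 at 60 min, at 66.41 CPM where the other libraries lay at 61.38 to 62.67. It was lowest in hypothalamus intruder library 5 at 30 min (62.2 against 64.6 to 65.44) and in hypothalamus intruder library 4 at 60 min (64.4 against 70.76 to 72.17). The latter library was also lowest for Nufip2 (44.44 against 49.96 to 51.85). Elavl1 was highest in amygdala intruder library 3 at 60 min (105.1 against 97.18 to 98.82). Zfp36 was highest in amygdala intruder library 4 at 30 min (4.647 against 2.909 to 3.157) and in hypothalamus control 3 at 120 min (3.382 against 2.725 to 2.826). Zfp36l2 was lowest in amygdala intruder library 5 at 30 min (29.61 against 35.46 to 37.53).

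The change from 30 to 60 min differed between regions for 4 members in edgeR, a difference that cannot be told apart from the leading index. Adjusted p-values were 5.84e-06 in controls and 2.14e-08 in intruder groups for Rc3h1, 0.000267 and 2.03e-06 for Rc3h2, 1.81e-05 and 2.28e-08 for Nufip2, and 1.88e-05 and 2.29e-07 for Elavl1.

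The intruder effect pointed in opposite directions at different times for a pair of genes, with every intruder library on one side of the control mean. Nufip2 in amygdala was at a log2 fold change of -0.0949 at 30 min and 0.3589 at 120 min. The 120 min value is among those by which Nufip2 was chosen, so this is a description. Zfp36l1 in frontal cortex was at -0.1423 at 60 min and 0.1962 at 120 min. These differences were not tested.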

How the results depend on the processing

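No value that was called changed direction under any alternative: of the alternative values, 4271 stayed on their side of the threshold, 79 lost and 24 gained a call, and 57 moved by more than the limit set for them. Intruder against control at 120 min gave 2 members in amygdala and 0 with the leading index as a block or the groups fitted alone. In hypothalamus it gave 1 and 0 without a filter, with the index block or alone. From 30 to 60 min, amygdala controls gave 1 member and 0 without a filter, with a replicate block, with the index block or alone; amygdala intruder groups gave 6 and 0 with the index block. Hypothalamus intruder groups gave 1, with 0 without a filter, with voom, a replicate block or the index block, and 2 with DESeq2. Hypothalamus controls gave 0, with 1 under upper-quartile scaling and 2 with DESeq2. Amygdala intruder groups at 120 against 30 min gave 1 and 0 without a filter, with a replicate block or the index block. Frontal cortex intruder groups at 120 against 60 min gave 3, 0 with the index block and 1 alone. Amygdala against frontal cortex gave 3 and 5 with the animal as a replicate block. The causes were not tested. On raw library sizes 43 of the members' group means moved by more than 1 SD.

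Leaving out 1 library at a time gave 0 to 1 members for the single calls above and for hypothalamus controls from 30 to 60 min, 5 to 6 for amygdala intruder groups from 30 to 60 min, and 0 to 5 for frontal cortex intruder groups at 120 against 60 min. Frontal cortex at 120 against 30 min gave 2 to 3 in either condition. The regional comparisons gave 2 to 4, 5 to 6 and 3 to 4.

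Replicate numbers were not treated as pairs in the main fits. Deviations of same-numbered libraries correlated at -0.66 to 0.68, and in no region and time did every pair exceed 0.1. In amygdala at 60 min all lay between 0.01 and 0.64. A limit on every pair cannot show that the numbers carry no shared structure. Counts over all genes moved more. Intruder against control at 120 min in amygdala called 93 genes, 12 without a filter, 254 with a replicate block, 409 with DESeq2 and 0 alone or with the index block. In hypothalamus it called 34, 100 with DESeq2 and 0 alone. The index block could not be fitted for most frontal cortex comparisons. Zfp36, at 92 to 223 reads, had the widest intervals.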
